A study of Mus musculus with 8 samples.

Results

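Intestinal stem cell and Wnt pathway genes were measured in colonic tumors that arose after chemical colitis in WT mice and in mice lacking MDR1A. The members were 40 genes listed by symbol: stem and progenitor cell genes, targets of the pathway in epithelium, its receptors and transducers, and ligands and secreted inhibitors that connective tissue cells also make. Of these 40 genes, 39 were measured, out of 22180 genes on the array with a probe set of their own. Tcf7 had no probe set named for it alone and was not analysed here. Where a gene had several probe sets, the one with the highest mean over the 8 arrays was used.

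The tumors, recorded as adenomas, came from male FVB/N mice. Every mouse had been given azoxymethane (AOM), a carcinogen, once at 10 mg/kg when 6 weeks old, and then 3 cycles of 2.5% dextran sulfate sodium (DSS), which injures the colonic epithelium, for 7 days each. The groups were 4 WT and 4 MDR1A KO tumors taken on day 84, with 1 tumor and 1 array per mouse, so the replicates were separate animals. MDR1A KO mice lack Abcb1a, the gene of a drug efflux pump, in all cells of the body and not in epithelium alone. Untreated colon and colon treated with DSS alone were not analysed here. The protocol names alternative extraction kits without saying which served for each tumor, so the kit was not tested as a batch.

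Wnt ligands bind Frizzled receptors and the co-receptors Lrp5 and Lrp6, which spares beta-catenin from a destruction complex that holds Apc and Axin proteins. Beta-catenin then enters the nucleus and switches on target genes with TCF and LEF factors. In the intestine this signal keeps the stem cells at the crypt base dividing, R-spondins from cells below the crypt strengthen it, and many target genes encode proteins that damp it again. Tumors raised by AOM often carry mutations that stabilize beta-catenin, so their epithelium commonly has strong Wnt target expression.

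Values are log2 signals, which can be compared between tumors for 1 gene but not between genes. A log2 fold change is the MDR1A KO mean minus the WT mean, p-values are two-sided and unadjusted from limma unless another test is named, and adjusted p-values cover all 25341 probe sets with a gene symbol. Abcb1a served as the check of the labels: it lay between 8.69 and 9.46 in WT tumors and between 6.13 and 6.87 in MDR1A KO tumors (log2 fold change -2.67, standard error 0.20, limma adjusted p = 0.00599). All tumors had high signals for Epcam, an epithelial adhesion molecule, from 11.62 to 11.87 in WT and from 11.65 to 11.75 in MDR1A KO tumors. The medians of the arrays lay between 5.62 and 5.67, and no pair of arrays among 28 was identical.

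Few of the genes differed between the genotypes, and the log2 fold changes lay between -0.46 and 0.63. Some were imprecise, with 95% intervals up to 1.56 for Sfrp1 and 1.47 for Rspo3, so larger differences were not excluded. At an unadjusted p under 0.05, 4 of 39 members were higher in MDR1A KO tumors (10.3%), against 3.66% of all probe sets with a symbol. These were Smoc2, Wif1, Wnt10a and Dkk3. A further 2 members, Ccnd1 and Fzd5, were lower (5.13%), against 2.74% of all probe sets. None of the 39 passed the criterion of the methods, a change of at least 2-fold at an unadjusted p under 0.05, which 0.241% of all probe sets passed. None passed limma with an adjusted p under 0.05 either, where the lowest adjusted p of a member was 0.61 and the background was 0.0158%. Only 1 member, Dkk3, had higher values in all MDR1A KO tumors than in any WT tumor, and none had lower values in all of them; 2.13% and 1.59% of all probe sets did so. The median log2 fold change was 0.12 over the 39 members, 0.18 over the 20 measured epithelial targets, -0.04 over the 8 receptors and transducers, 0.30 over the 11 ligands and secreted inhibitors, and 0.00 over all probe sets with a symbol. Without WT replicate 4 the median of the ligands and secreted inhibitors was 0.17, and without WT replicate 3 that of the epithelial targets was 0.01.

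**Figure D1:**
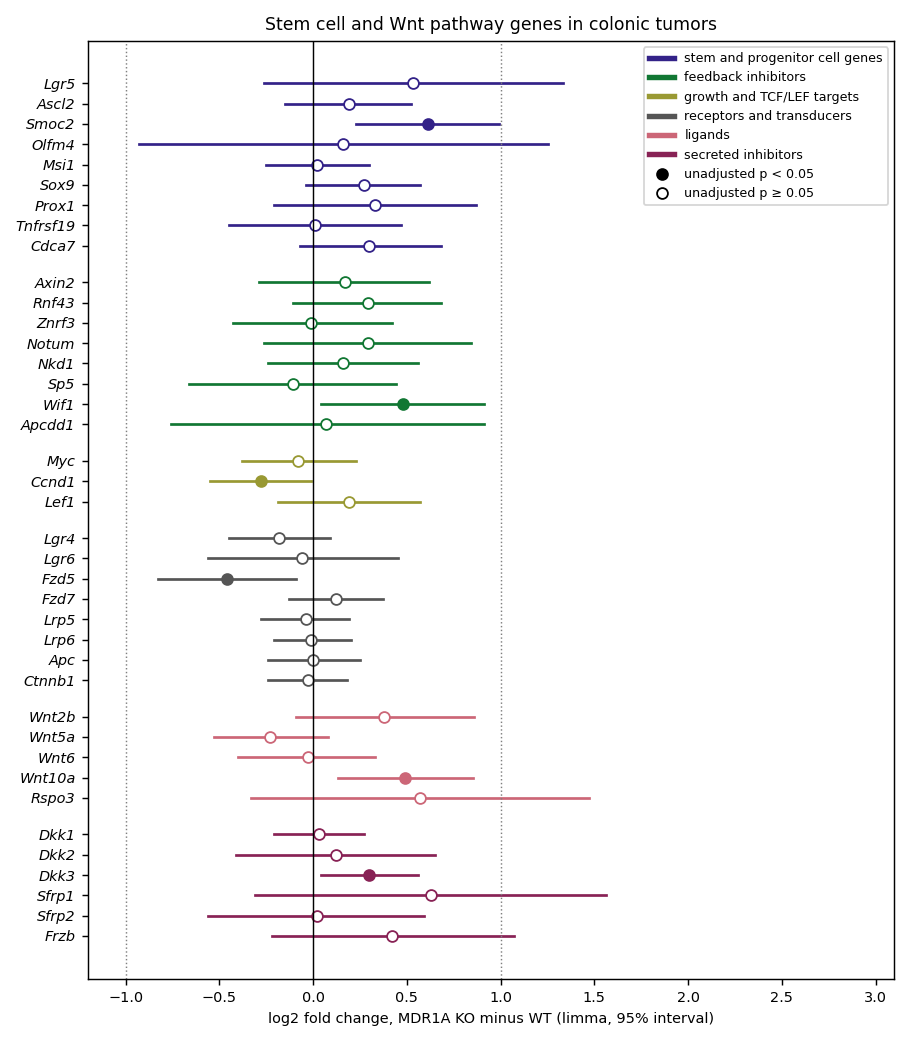
Difference of the MDR1A KO mean from the WT mean in log2 signal (x axis) for each of 39 genes, grouped by role, with the 95% interval of the limma fit; filled points have an unadjusted p under 0.05 and dotted lines mark a change of 2-fold. The 6 filled points lie between -0.46 and 0.61, inside the dotted lines, and the wide intervals of Rspo3 and Sfrp1 cross 0.

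Among the stem and progenitor cell genes, the MDR1A KO mean was the higher for all 9, by 0.01 to 0.61 on the log2 scale, but only Smoc2 passed an unadjusted p of 0.05. Without WT replicate 3 the mean was higher for 7 and lower for 2, Msi1 at -0.07 and Tnfrsf19 at -0.22. Smoc2 encodes a secreted calcium-binding matrix protein and is used as a marker of intestinal stem cells in the mouse. Its log2 signals were 9.00, 8.84, 8.62 and 8.75 in WT replicates 1 to 4 and 9.52, 8.94, 9.75 and 9.44 in MDR1A KO replicates 1 to 4. Of the MDR1A KO tumors, 3 lay above every WT tumor, and MDR1A KO replicate 2 lay just under the highest WT value. MDR1A KO tumors were higher by 0.61 on the log2 scale (standard error 0.17, 1.53-fold, p = 0.00498, limma adjusted p = 0.61; exact permutation test, p = 0.057). It stayed under an unadjusted p of 0.05 in all 17 fits run as alternatives, those that left out 1 tumor each included.

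Lgr5, the R-spondin receptor that marks the cycling stem cells of the crypt base, varied more between the tumors of a genotype than between the genotypes. Its signals were 8.91, 9.17, 7.83 and 8.24 in the WT tumors and 9.26, 8.16, 9.40 and 9.47 in the MDR1A KO tumors. MDR1A KO replicates 1, 3 and 4 lay above all WT tumors, and MDR1A KO replicate 2 lay below WT replicates 1, 2 and 4. The log2 fold change was 0.53 (standard error 0.35, p = 0.165, limma adjusted p = 0.844; exact permutation test, p = 0.20). Without MDR1A KO replicate 2 it was 0.84 and passed an unadjusted p of 0.05 (limma adjusted p = 0.938), and without WT replicate 3 it was 0.30 and did not (limma adjusted p = 0.861). For another, dimmer probe set of Lgr5 the log2 fold change was 0.08 (standard error 0.18). Its means were 5.09 in WT and 5.17 in MDR1A KO tumors, close to the bound of 5.06 under which the dimmest 33.3% of probe sets lay.

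MDR1A KO replicate 2, low for Lgr5 and lowest of its group for Smoc2, was the highest of all 8 tumors for Olfm4. Olfm4 encodes a secreted glycoprotein that marks stem cells of the human colon, while in the mouse it marks those of the small intestine. Its signal was 6.32 in MDR1A KO replicate 2 and between 4.28 and 4.56 in the other MDR1A KO tumors, and it ranged from 4.06 to 5.60 in WT tumors. Its mean fell in the dimmest 33.3% of probe sets, as that of no other member did, and its log2 fold change of 0.16 had a 95% interval from -0.93 to 1.25.

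The other stem and progenitor cell genes had fold changes within the spread of the tumors. Sox9, a transcription factor of crypt progenitors, had a log2 fold change of 0.27 (95% interval -0.04 to 0.57), and without MDR1A KO replicate 2 it was 0.37 and passed an unadjusted p of 0.05 (limma adjusted p = 0.897). Cdca7, a cell division gene found in crypt signatures, had one of 0.30 (95% interval -0.07 to 0.68), which was 0.46 without MDR1A KO replicate 4 and 0.40 without WT replicate 2, past an unadjusted p of 0.05 both times (limma adjusted p = 0.731 and adjusted p = 0.71). Prox1, a homeobox factor that is a Wnt target in colonic tumors, had one of 0.33, and it was 0.07 without WT replicate 3. Ascl2, the transcription factor that maintains Lgr5 cells, had one of 0.19. Msi1, an RNA-binding protein, and Tnfrsf19, a receptor also called Troy, had log2 fold changes of 0.02 and 0.01, with signs that turned under other scalings.

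The feedback inhibitors are Wnt targets whose proteins damp the pathway, and they are often read as a measure of its activity. Of the 8, only Wif1 passed an unadjusted p of 0.05, 6 had higher means and 2 had lower means in MDR1A KO tumors. Wif1 encodes a secreted protein that binds Wnt ligands outside the cell. Its log2 signals were 11.45, 11.75, 10.91 and 11.41 in WT tumors and 11.86, 11.46, 12.00 and 12.10 in MDR1A KO tumors. MDR1A KO replicate 2 fell inside the WT range and the other 3 lay above it. The mean difference was 0.48 on the log2 scale (standard error 0.19, 1.39-fold, p = 0.034, limma adjusted p = 0.756; exact permutation test, p = 0.057). The call was met in 8 of the 17 alternative fits. It was lost with the methods' t-test and with median-centred arrays, and when any of 6 tumors was left out: the log2 fold change was 0.50, 0.32 and 0.49 without WT replicate 1, 3 or 4, and 0.48, 0.43 and 0.40 without MDR1A KO replicate 1, 3 or 4.

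The promoters of Wif1, Fzd5 and Sp5 are shown, from 250 bases before to 50 bases after the start, read 5′ to 3′ on the gene's strand from RefSeq (GRCm38.p6). Wif1, at chr10:121033754-121034053 on the + strand, and Fzd5, at chr1:64737701-64738000 on the - strand, are the members past an unadjusted p of 0.05 that have an entry in the table used. Sp5, at chr2:70474673-70474972 on the + strand, a target often used as a reporter of Wnt signaling, is shown beside them because its window holds a match to the TCF/LEF core. Capitals mark a match.
Wif1: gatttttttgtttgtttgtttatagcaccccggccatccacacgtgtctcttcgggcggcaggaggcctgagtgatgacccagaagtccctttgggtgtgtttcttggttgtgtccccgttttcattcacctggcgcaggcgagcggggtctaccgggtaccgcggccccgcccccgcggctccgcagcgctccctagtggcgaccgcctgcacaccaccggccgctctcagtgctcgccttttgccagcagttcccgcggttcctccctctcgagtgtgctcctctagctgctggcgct
Fzd5: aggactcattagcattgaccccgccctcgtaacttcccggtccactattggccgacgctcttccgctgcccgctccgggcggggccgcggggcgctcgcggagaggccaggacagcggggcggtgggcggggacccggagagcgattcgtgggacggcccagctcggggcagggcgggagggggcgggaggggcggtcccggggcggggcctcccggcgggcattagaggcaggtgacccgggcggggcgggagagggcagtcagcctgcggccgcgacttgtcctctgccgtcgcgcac
Sp5: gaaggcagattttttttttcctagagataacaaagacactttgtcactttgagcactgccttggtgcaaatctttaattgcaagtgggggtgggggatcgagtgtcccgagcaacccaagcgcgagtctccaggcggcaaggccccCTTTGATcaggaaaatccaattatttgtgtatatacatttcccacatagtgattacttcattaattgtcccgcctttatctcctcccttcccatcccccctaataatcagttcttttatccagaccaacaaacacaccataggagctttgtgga
The cores searched were CTTTGAA and CTTTGAT on both strands. The match in Sp5 began 104 bases before the start, and no match lay in the windows of Wif1 and Fzd5. Promoters were found for 23 of the 40 genes, in 31 windows, of which 3 held a match (9.7%): those of Sp5, Dkk1 and 1 of Tnfrsf19. Of all 32851 promoters of the table, 8.7% held one. The log2 fold changes of these genes were -0.11, 0.03 and 0.01.

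The remaining feedback inhibitors did not pass an unadjusted p of 0.05, with log2 fold changes from -0.11 to 0.29. Axin2, a scaffold of the destruction complex and the usual readout of Wnt signaling, had signals of 9.99, 10.10, 9.06 and 9.83 in WT tumors and of 9.99, 9.93, 9.91 and 9.81 in MDR1A KO tumors. The MDR1A KO tumors lay close together, and 3 of the WT tumors lay about them, with WT replicate 3 far below. The log2 fold change of 0.17 (standard error 0.20, limma adjusted p = 0.921) turned to -0.06 without WT replicate 3, with a standard error of 0.10. For a dimmer probe set of Axin2 the log2 fold change was -0.11 (standard error 0.12). Notum, a secreted enzyme that inactivates Wnt ligands, had a log2 fold change of 0.29, and 0.01 without WT replicate 3. Its dimmer probe set had one of -0.00 (standard error 0.14), and the mean of both gave 0.14. For Rnf43 and Znrf3, membrane ubiquitin ligases that remove Frizzled receptors, these values were 0.29 and -0.01 with all tumors, and 0.09 and -0.21 without WT replicate 3. Nkd1, which binds Dishevelled, had values of 0.16 and -0.03. The log2 fold changes of Sp5, a transcription factor, and Apcdd1, a membrane inhibitor, were -0.11 and 0.07, and they became -0.32 and -0.22.

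WT replicate 3 thus stood apart for the whole group. It had the lowest signal of the 8 tumors for 8 of 8 feedback inhibitors, for 7 of 9 stem and progenitor cell genes and for 17 of the 20 epithelial targets together. Over all probe sets with a symbol it was the lowest tumor in 14.8%. The mean log2 signal of the 8 feedback inhibitors was 9.68, 9.77, 8.77 and 9.49 in WT tumors and 9.73, 9.56, 9.62 and 9.47 in MDR1A KO tumors. WT replicate 3 was the lowest of the 8, and the other 7 tumors spanned 9.47 to 9.77 with both genotypes mixed. For Notum, WT replicate 3 was at 8.46 and the other WT tumors at 9.56 to 9.65; for Rnf43 it was at 9.62 and the others at 10.30 to 10.47. The SD of the WT tumors exceeded that of the MDR1A KO tumors for 8 of 8 feedback inhibitors. That was not particular to them: it held for 29 of the 39 members, 6 of 6 secreted inhibitors among them. It also held for 55 of 72 other Wnt pathway genes. Outside the pathway it held for 9 of 9 fibroblast and 6 of 6 smooth muscle genes, but for 3 of 7 differentiated colonocyte genes. The share over all probe sets was not counted. Without WT replicate 3 the WT SD of Notum dropped from 0.57 to 0.05, beside 0.14 in MDR1A KO tumors, and that of Axin2 from 0.47 to 0.13, beside 0.08. The median log2 fold change of the epithelial targets was then 0.01 instead of 0.18, and that of the feedback inhibitors alone -0.05 instead of 0.16. For the growth and TCF/LEF targets it was -0.21 instead of -0.08. The stem and progenitor cell genes kept a median of 0.18, beside 0.27 with all tumors.

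**Figure D2:**
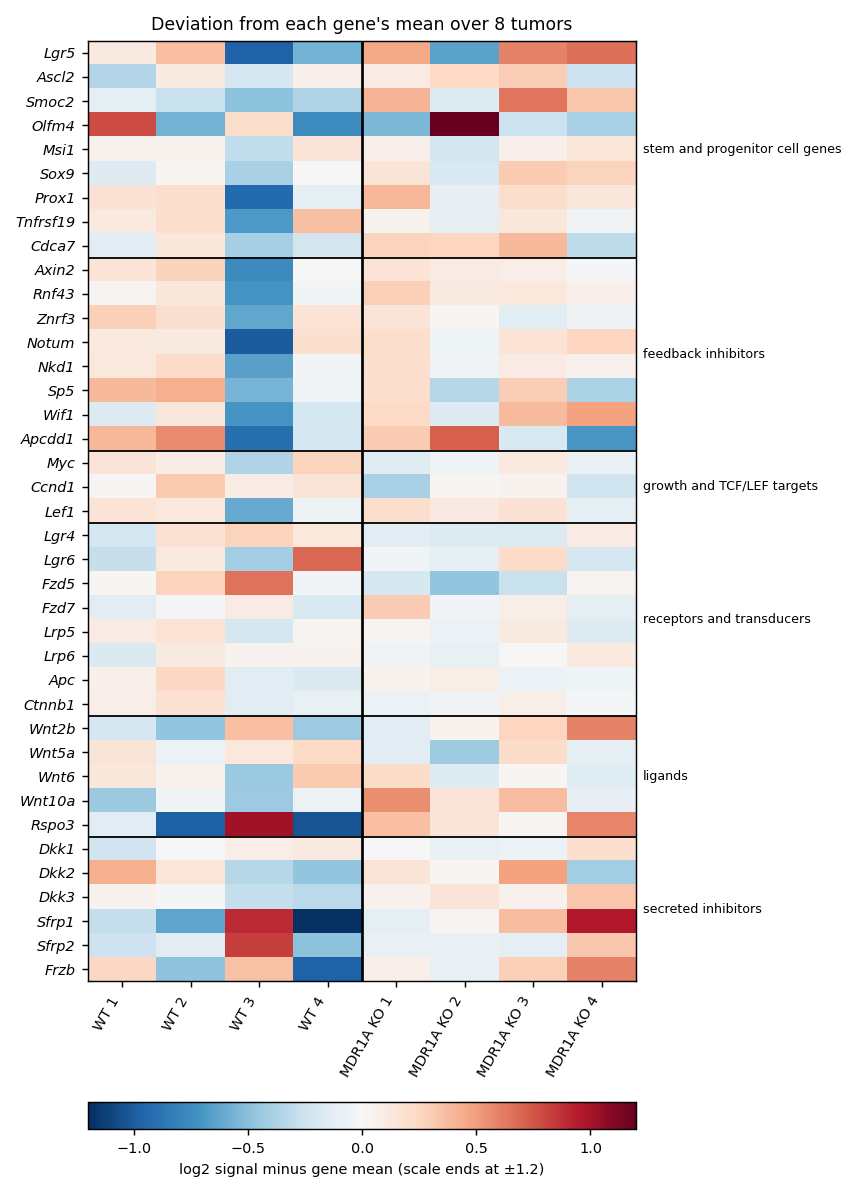
Deviation of each gene (rows, grouped by role) from its own mean over the 8 tumors (columns), in log2 units, red above and blue below the mean, with WT tumors left of the black line and MDR1A KO tumors right of it. WT replicate 3 is blue for 8 of 8 feedback inhibitors and red for Rspo3, Sfrp1 and Sfrp2.

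The same tumor differed in its cell markers. WT replicate 3 had the highest signal of all 8 tumors for 6 of 6 smooth muscle genes and 7 of 9 fibroblast genes, the lowest for 2 and the highest for 2 of 10 epithelial genes, and a differentiated colonocyte mean of 10.18, the highest of the 8. Over all probe sets with a symbol it was the highest tumor in 15.1%. Its mean over the 10 epithelial markers, 10.42, lay inside the range of the other WT tumors, 10.38 to 10.50. Its mean over 6 proliferation genes, 8.81, lay inside the range of 8.65 to 9.14 of all WT tumors. WT replicate 4 had a differentiated colonocyte mean of 10.06 and MDR1A KO replicate 4 one of 10.00, close to that of WT replicate 3, and their feedback inhibitor means of 9.49 and 9.47 were the next lowest. The part of the cell makeup in these values was not tested. In bulk tumor RNA, fewer cells of a type and less RNA per cell cannot be told apart.

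Of the 3 growth genes and TCF/LEF factors measured, only Ccnd1 passed an unadjusted p of 0.05, and it was lower in MDR1A KO tumors. Ccnd1 encodes cyclin D1, a driver of entry into the cell cycle. Its signals were 9.98, 10.28, 10.06 and 10.12 in WT tumors and 9.58, 9.99, 10.01 and 9.73 in MDR1A KO tumors. MDR1A KO replicates 1 and 4 lay below all WT tumors, and replicates 2 and 3 lay just above the lowest of them. On the log2 scale the difference was -0.28 (standard error 0.12, 1.22-fold, p = 0.0425, limma adjusted p = 0.771; exact permutation test, p = 0.086). The call was lost with the methods' t-test and without any of 5 tumors, with log2 fold changes of -0.23, -0.30 and -0.28 without WT replicate 2, 3 or 4 and -0.20 and -0.25 without MDR1A KO replicate 1 or 4. Myc, a growth factor-responsive transcription factor, had a log2 fold change of -0.08, and it was -0.21 without WT replicate 3 (limma adjusted p = 0.594) and -0.00 without WT replicate 4. Lef1, a partner of beta-catenin and a target itself, had one of 0.19, and 0.02 without WT replicate 3. The mean over the 6 markers of proliferating cells ranged from 8.65 to 9.14 in WT and from 8.76 to 9.13 in MDR1A KO tumors. None of the 6 passed an unadjusted p of 0.05.

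**Figure D3:**
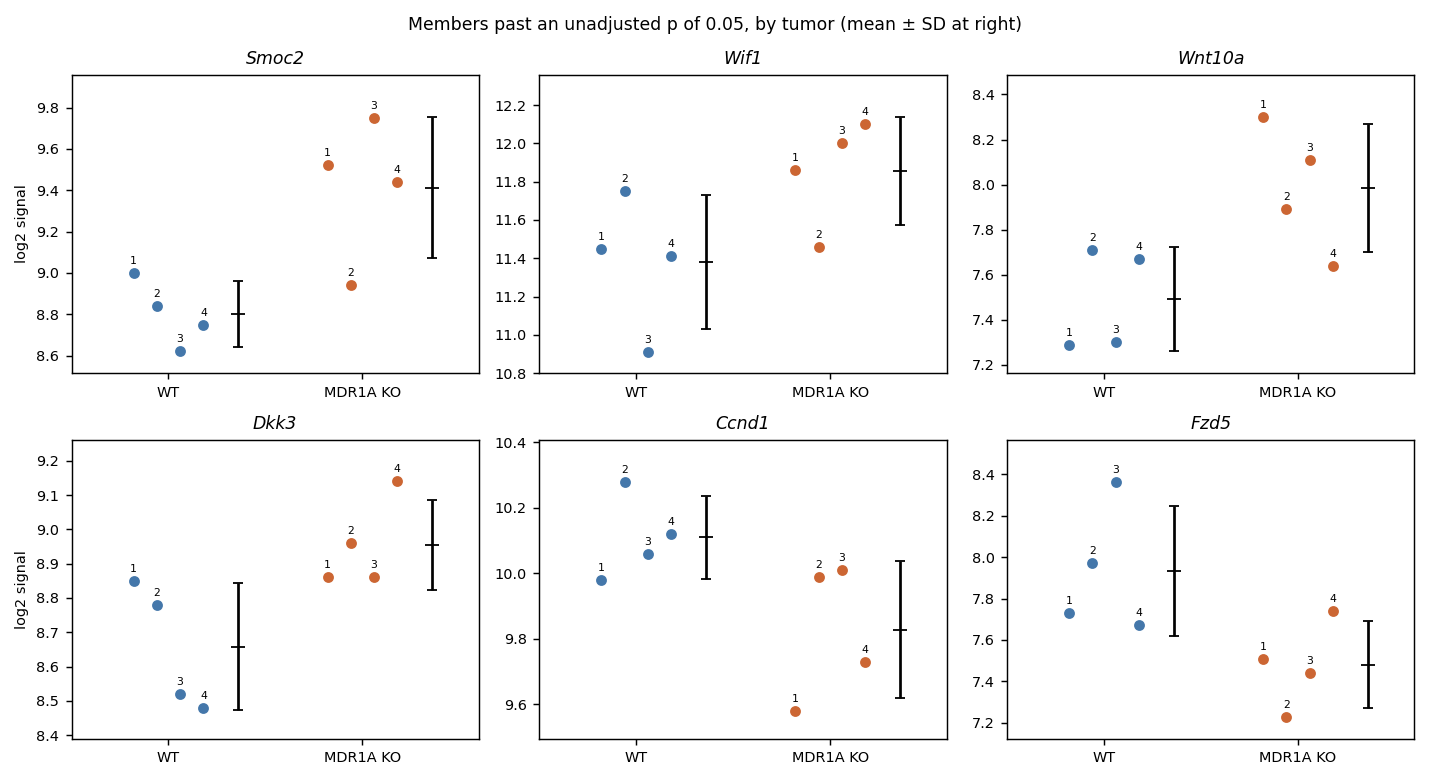
Log2 signal (y axis) in each tumor for the 6 genes past an unadjusted p of 0.05, with WT tumors in blue, MDR1A KO tumors in orange, replicate numbers above the points and the mean ± SD beside them. Only Dkk3 has no overlap between the groups, and MDR1A KO replicate 2 lies within or next to the WT range for Smoc2 and Wif1.

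Among receptors and transducers only Fzd5 passed an unadjusted p of 0.05. Fzd5 encodes a Frizzled receptor of intestinal epithelium. It had signals of 7.73, 7.97, 8.36 and 7.67 in WT tumors and 7.51, 7.23, 7.44 and 7.74 in MDR1A KO tumors. MDR1A KO replicates 1 to 3 lay below all WT tumors, and replicate 4 lay among the WT values. The mean was lower in MDR1A KO tumors, at a log2 fold change of -0.46 (standard error 0.17, 1.37-fold, p = 0.0212, limma adjusted p = 0.738; exact permutation test, p = 0.086). It was called in 15 of the 17 alternative fits, and not with the methods' t-test or without MDR1A KO replicate 2, where it was -0.37 (limma adjusted p = 0.961). Without WT replicate 3, the highest tumor for Fzd5, it was -0.32 and stayed under an unadjusted p of 0.05 (limma adjusted p = 0.556).

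For Ctnnb1, Apc, Lrp5 and Lrp6, the core of the pathway, no difference was detected, and the intervals were narrow. Ctnnb1, the gene of beta-catenin, had signals of 11.71, 11.81, 11.50 and 11.54 in WT tumors and 11.56, 11.58, 11.70 and 11.61 in MDR1A KO tumors. The MDR1A KO values lay wholly inside the WT range, and the log2 fold change was -0.03 (95% interval -0.24 to 0.18, limma adjusted p = 0.974). Apc, the tumor suppressor of the destruction complex, had signals of 9.00, 9.19, 8.80 and 8.76 in WT tumors and 8.98, 9.01, 8.87 and 8.89 in MDR1A KO tumors. Its log2 fold change was 0.00 (95% interval -0.24 to 0.25, limma adjusted p = 0.999). These are RNA levels, which do not measure beta-catenin protein or a mutation. The co-receptors Lrp5 and Lrp6 had log2 fold changes of -0.04 (95% interval -0.28 to 0.19) and -0.01 (95% interval -0.21 to 0.20), and Fzd7, a further Frizzled receptor, one of 0.12 (95% interval -0.13 to 0.37). Lgr4 and Lgr6, R-spondin receptors related to Lgr5, had log2 fold changes of -0.18 (95% interval -0.45 to 0.09) and -0.06 (95% interval -0.56 to 0.45). Without WT replicate 1 that of Lgr4 was -0.28 and passed an unadjusted p of 0.05 (limma adjusted p = 0.783).

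Of the ligands only Wnt10a, a canonical Wnt ligand, passed an unadjusted p of 0.05. Its signals were 7.29, 7.71, 7.30 and 7.67 in WT tumors and 8.30, 7.89, 8.11 and 7.64 in MDR1A KO tumors. MDR1A KO replicates 1 to 3 lay above all WT tumors, and replicate 4 lay just under WT replicates 2 and 4. MDR1A KO tumors were higher by 0.49 on the log2 scale (standard error 0.16, 1.41-fold, p = 0.0136, limma adjusted p = 0.708; exact permutation test, p = 0.086), and like Smoc2 it kept an unadjusted p under 0.05 in all 17 alternative fits, with a lowest log2 fold change of 0.38 without MDR1A KO replicate 1. Wnt6, a ligand that crypt epithelium makes, had a log2 fold change of -0.03 (95% interval -0.40 to 0.33). Wnt5a, a noncanonical ligand of the mesenchyme, had one of -0.23 (95% interval -0.53 to 0.08), and -0.34 without MDR1A KO replicate 3, then past an unadjusted p of 0.05 (limma adjusted p = 0.893).

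Rspo3 and Wnt2b are ligands of stromal cells and had their highest WT value in WT replicate 3. Rspo3, the R-spondin that cells below the crypt make, had signals of 6.22, 5.37, 7.35 and 5.31 in WT tumors and 6.71, 6.50, 6.38 and 6.93 in MDR1A KO tumors. WT replicates 1, 2 and 4 lay below all MDR1A KO tumors and WT replicate 3 lay above them all. The log2 fold change was 0.57 (standard error 0.40, p = 0.187, limma adjusted p = 0.858; exact permutation test, p = 0.286). Without WT replicate 3 it was 1.00 and passed an unadjusted p of 0.05 (standard error 0.23, limma adjusted p = 0.248), and without WT replicate 2 or 4 it was 0.34 or 0.32. Before rounding, the value of 1.00 was just under a 2-fold change, so Rspo3 did not pass the criterion of the methods. In the fit without WT replicate 3, 5.55% of all probe sets were higher at an unadjusted p under 0.05, against 3.66% with all tumors. Wnt2b, a canonical ligand, ranged from 5.96 to 6.80 in WT and from 6.30 to 7.03 in MDR1A KO tumors. Its log2 fold change was 0.38 (95% interval -0.09 to 0.86), and 0.57 without WT replicate 3, then past an unadjusted p of 0.05 (limma adjusted p = 0.374), but 0.25 without MDR1A KO replicate 4.

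The MDR1A KO mean was also the higher for all 6 secreted inhibitors, by 0.02 to 0.63 on the log2 scale, and 1 passed an unadjusted p of 0.05. This was Dkk3, a divergent member of the Dickkopf family that does not bind the Wnt co-receptors as the others do. Its signals were 8.85, 8.78, 8.52 and 8.48 in WT tumors and 8.86, 8.96, 8.86 and 9.14 in MDR1A KO tumors. The groups did not overlap, but WT replicate 1 was nearly equal to MDR1A KO replicates 1 and 3. The groups differed by 0.30 on the log2 scale (standard error 0.11, 1.23-fold, p = 0.0263, limma adjusted p = 0.743; exact permutation test, p = 0.029, the smallest that 4 tumors against 4 allow). The call was lost with median-centred arrays, at 0.26, and without any of 4 tumors, with log2 fold changes of 0.25 and 0.24 without WT replicate 3 or 4 and 0.30 and 0.24 without MDR1A KO replicate 2 or 4. Dkk1 and Dkk2, inhibitors that bind Lrp6, had log2 fold changes of 0.03 and 0.12.

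Sfrp1, Sfrp2 and Frzb encode decoys that bind Wnt ligands through a Frizzled-like domain, and fibroblasts and smooth muscle are among their sources. Sfrp1 had signals of 8.83, 8.48, 10.01 and 7.88 in WT tumors and 9.00, 9.15, 9.48 and 10.07 in MDR1A KO tumors. As with Rspo3, WT replicates 1, 2 and 4 lay below all MDR1A KO tumors, while WT replicate 3 was the second highest of the 8. The log2 fold change was 0.63 (standard error 0.41, p = 0.164, limma adjusted p = 0.843; exact permutation test, p = 0.257). Without WT replicate 3 it was 1.03 and past the criterion of the methods (limma adjusted p = 0.356), which 123 of all 25341 probe sets passed in that fit, against 61 with all tumors. Without WT replicate 4 it was 0.32, and without MDR1A KO replicate 4 it was 0.41. Frzb ranged from 6.02 to 7.34 in WT and from 6.90 to 7.58 in MDR1A KO tumors, with a log2 fold change of 0.42 (95% interval -0.22 to 1.07), which ran from 0.17 without WT replicate 4 to 0.61 without WT replicate 3. Sfrp2 had a log2 fold change of 0.02, and 0.30 without WT replicate 3.

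**Figure D4:**
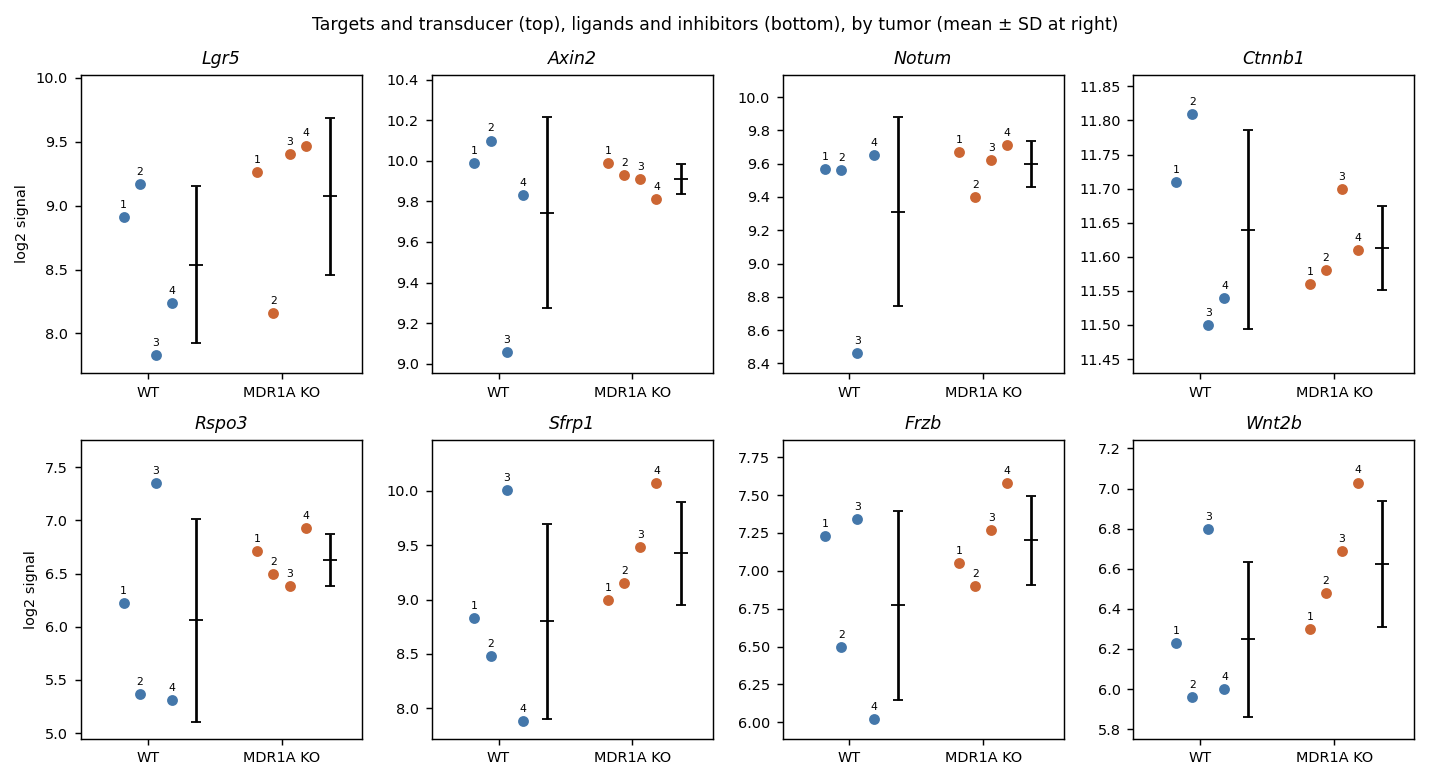
Log2 signal (y axis) in each tumor of 4 targets or transducers (top) and of 4 stromal ligands or inhibitors (bottom), with replicate numbers and the mean ± SD. WT replicate 3 is the lowest tumor for Lgr5, Axin2, Notum and Ctnnb1 and the highest WT tumor for Rspo3, Sfrp1, Frzb and Wnt2b.

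The 3 WT tumors that were low for Rspo3 and Sfrp1 were also the low tumors for smooth muscle markers. The mean of the 6 smooth muscle genes was 9.95, 8.60, 10.99 and 8.36 in WT replicates 1 to 4 and between 10.25 and 10.69 in MDR1A KO tumors. WT replicates 4, 2 and 1 were the lowest tumors, in the same order as for Rspo3 and Sfrp1. WT replicate 3 was the highest for smooth muscle and Rspo3, but MDR1A KO replicate 4 was the highest for Sfrp1. Among MDR1A KO tumors, replicates 3 and 2 were the lowest for both smooth muscle and Rspo3, in that order. Replicates 1 and 4 changed places, with 1 the highest of this group for smooth muscle and 4 for Rspo3. Sfrp1 stood in another order, rising from MDR1A KO replicate 1 to 4. All 6 smooth muscle genes had the higher mean in MDR1A KO tumors, by 0.54 to 1.41 on the log2 scale, and none passed an unadjusted p of 0.05. The mean of the 9 fibroblast genes ranged from 8.88 to 10.01 in WT and from 9.57 to 9.70 in MDR1A KO tumors, with 7 of the 9 means higher in MDR1A KO tumors and none past that threshold. All 6 immune cell genes had higher means in MDR1A KO tumors. Their list means overlapped, from 7.56 to 8.96 in WT and from 8.36 to 8.88 in MDR1A KO tumors. At an unadjusted p under 0.05, 2 of 6 were higher (33.3%), against 3.66% of all probe sets. These were Adgre1 of macrophages, by 0.67 (limma adjusted p = 0.435), and Lyz2 of myeloid cells, by 0.35 (limma adjusted p = 0.726). WT replicate 3, the highest tumor for smooth muscle, was the lowest tumor for Smoc2 and had the second lowest value for Dkk3. The WT ranges of these genes were narrow, from 8.62 to 9.00 and from 8.48 to 8.85. The part of smooth muscle, fibroblast or immune cell content in the values of Smoc2, the ligands and the inhibitors was not tested.

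**Figure D5:**
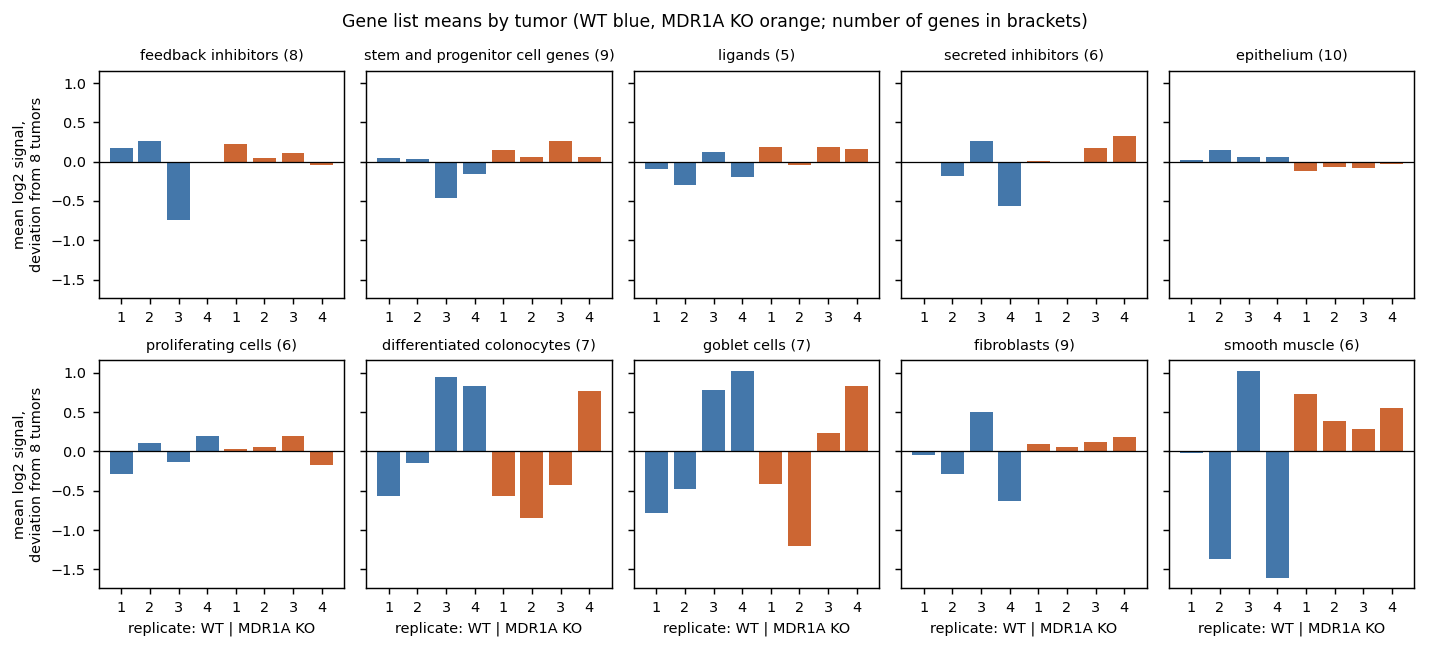
Mean log2 signal of each gene list per tumor, as the deviation from the mean over the 8 tumors (y axis), for 4 WT (blue) and 4 MDR1A KO tumors (orange), with the number of genes in brackets. The feedback inhibitors are at their lowest, 8.77, in WT replicate 3, where smooth muscle is at its highest, 10.99.

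Most epithelial markers had lower means in MDR1A KO tumors. Over all probe sets, 2.74% were lower at an unadjusted p under 0.05, and 1.59% were lower without overlap of the groups. Over 10 epithelial markers the mean ran from 10.38 to 10.50 in WT and from 10.23 to 10.33 in MDR1A KO tumors, without overlap, and 8 of the 10 means were lower, while Cdx1 and Elf3 had log2 fold changes of 0.02 and 0.06. Of these 10, only Cdx2, an intestinal identity factor, passed an unadjusted p of 0.05 (10%), with a log2 fold change of -0.65 (limma adjusted p = 0.756; exact permutation test, p = 0.114). Only Krt19 had no overlap of the groups, at -0.17, but it did not pass (limma adjusted p = 0.786). Of 7 differentiated colonocyte markers all had lower means and 2 passed (28.6%). These were Krt20 at -0.65, with no overlap of the groups (limma adjusted p = 0.635), and Cdhr5 at -0.29 (limma adjusted p = 0.78). Of 7 goblet cell markers 6 had lower means, Clca1 had a log2 fold change of 0.06, and none passed an unadjusted p of 0.05. Whether these move with Smoc2 or Lgr5 within the same cells was not tested.

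Few of the other genes of the pathway differed. Of 74 further Wnt pathway genes, 72 were measured, with a median log2 fold change of -0.01, and 2 were higher and 2 lower at an unadjusted p under 0.05 (2.78% each way), near the 3.66% and 2.74% of all probe sets. Fzd2, a Frizzled receptor, was higher by 0.36 (limma adjusted p = 0.738), with WT values from 4.87 to 5.42 and MDR1A KO values from 5.41 to 5.66. Rgmb, a BMP co-receptor found in stem cell signatures, was higher by 0.28 (limma adjusted p = 0.738). Prom1, a membrane glycoprotein of crypt progenitors also called CD133, had a log2 fold change of -0.43 (limma adjusted p = 0.756), and Bmi1, a Polycomb protein used as a stem cell marker, had one of -0.21 (limma adjusted p = 0.77). None of the 18 other Wnt ligands and R-spondins passed, nor did any of 9 other inhibitors, 10 genes of Wnt secretion and cytoplasmic transduction or 10 nuclear partners of beta-catenin.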

How the data were processed

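Total RNA of 8 colonic tumors was hybridized to GeneChip Mouse Gene 2.0 ST arrays. The deposited values are log2 signals per probe set, which the authors made with Affymetrix Expression Console 1.4 by RMA. RMA corrects background, gives all arrays the same distribution of values and summarizes the probes of a set, so a shift shared by all genes of a tumor cannot be seen. The arrays were annotated on a genome build not given in the sources used here. Symbols came from the platform's annotation, updated through a RefSeq gene table. Of 41345 probe sets, 25341 had a symbol, 1820 of them several, and 1-symbol probe sets were used for the genes named.

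Genotypes were compared in limma 3.58.1 (R 4.3.3; lmFit and eBayes, genotype only), with Benjamini-Hochberg adjustment over the 25341 probe sets, and single values by exact permutation over 70 arrangements of 4 tumors against 4. The code was tested on simulated data. The number of arrays limits the precision. The members and lists were chosen with earlier results of these data known. Values per tumor are given for members at an unadjusted p under 0.05, without overlap or with a log2 fold change of at least 0.5 either way, and for Lgr5, Axin2, Ctnnb1 and Apc; pathway genes are named at an unadjusted p under 0.05, and cell markers and other members by role. Alternatives were the methods' t-test, other variance models, array weights, other filters and scalings, the mean of a gene's probe sets, each tumor left out, a 1.5-fold threshold and a block on replicate number. Promoters were read from a RefSeq table with Python 3.11.15.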

Additional observations from a re-analysis of the deposited data

Results flagged for a closer look

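In 6 of 78 groups of 4 tumors (39 genes in both genotypes), 1 tumor stood far from the other 3 by Dixon's test, where chance flags about 1 in 20 groups, or 3.9 of 78. In MDR1A KO replicate 2, Lgr5 was at 8.16 and in the other MDR1A KO tumors at 9.26 to 9.47, while Olfm4 was at 6.32 and in the others at 4.28 to 4.56. In WT replicate 3, Notum was at 8.46 and in the other WT tumors at 9.56 to 9.65, and Znrf3 was at 7.95 against 8.73 to 8.86. In MDR1A KO replicate 4, Lgr4 was at 9.76 against 9.50 to 9.53 in the other MDR1A KO tumors, and Sfrp2 was at 6.99 against 6.56 to 6.58.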

How the results depend on the processing

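Smoc2 and Wnt10a passed an unadjusted p of 0.05 in all 17 alternative fits, and no member passed an adjusted p of 0.05 in any. The count of members that were higher was 2 with median-centred arrays and 2 with the replicate number as a block, and ran from 2 to 5 with 1 tumor left out. The count that was lower was 0 with the methods' t-test, and ran from 1 to 3 with 1 tumor left out. At a 1.5-fold threshold 1 member, Smoc2, passed the criterion of the methods, and leaving out 1 tumor gave 0 to 1, with Sfrp1 the one without WT replicate 3. The replicate numbers do not pair the tumors: deviations of same-numbered tumors correlated at 0.11, 0.02, -0.10 and 0.35, only WT replicate 4 matched its own number best, and the block removed the calls of Wif1 and Dkk3. Signs turned for members near 0: Apc was -0.02 with array weights, -0.01 when quantile-normalized again and -0.04 when median-centred; Tnfrsf19 was -0.02, -0.01 and -0.03 under these; Msi1 was -0.01 and Lrp6 0.01 when quantile-normalized again; Msi1 was -0.02 and Dkk1 -0.01 when median-centred; and Sfrp2 was -0.03 under both and -0.02 with the mean of its probe sets. With 1 tumor left out, log2 fold changes ran from -0.06 to 0.09 for Apc, -0.22 to 0.32 for Apcdd1, -0.06 to 0.28 for Axin2, -0.08 to 0.03 for Ctnnb1, -0.05 to 0.07 for Dkk1, -0.02 to 0.29 for Dkk2, -0.21 to 0.16 for Lgr6, -0.12 to 0.01 for Lrp5, -0.06 to 0.03 for Lrp6, -0.07 to 0.10 for Msi1, -0.03 to 0.26 for Nkd1, -0.31 to 0.45 for Olfm4, -0.15 to 0.30 for Sfrp2, -0.32 to 0.01 for Sp5, -0.22 to 0.13 for Tnfrsf19, -0.18 to 0.07 for Wnt6 and -0.21 to 0.09 for Znrf3.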
